A study of Danio rerio with 8 samples.

Results

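The keratins of adult zebrafish ventricle cells were examined in 8 RNA-seq libraries. The genes are 9 named keratins, taken by gene symbol or synonym from a table of 31388 gene identifiers: the type II keratins krt4 (ENSDARG00000017624), krt5 (ENSDARG00000058371) and krt8 (ENSDARG00000058358), and the type I keratins krt15 (ENSDARG00000036840), krt18a.1 (ENSDARG00000018404), krt18b (ENSDARG00000028618), krt94 (ENSDARG00000044975), cyt1 (ENSDARG00000092947) and cyt1l (ENSDARG00000036832). Each symbol named 1 identifier, and krt8 is also an older synonym of krt4; the values below are kept apart by identifier. These genes were chosen by family name with earlier results of the same data known, and krt18b was selected on its level by pool, so differences by pool are given here as a description with no test.

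Cells were sorted from dissociated ventricles of fish 3 to 9 months old that carry Tg(-6.8wt1a:EGFP), a transgene in which a fragment upstream of wt1a drives green fluorescent protein (GFP). The groups were 4 libraries labelled GFP-positive and 4 labelled GFP-negative, with no treatment; both sorts carry the transgene. Each of 4 pools of 3 to 5 hearts gave 1 library of each sort. The protocol text also speaks of mCherry-positive cells from the ventricular apex and of another library kit, whereas titles and characteristics speak of GFP and wt1a; the titles were used. Values are TPM (transcript abundance corrected for length and brought to a common total in each library). Levels were compared between genes on this scale. The RNA was amplified before it was read, and whether the length correction makes genes comparable in such libraries was not tested. The order of the genes, and the ratios and shares between them, rest on that correction. The sequencing depth is unknown and no counting interval can be given. In bulk libraries, fewer cells of a type and less RNA per cell cannot be told apart.

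Keratins are the intermediate filament proteins of epithelial cells. A filament is built from heterodimers of a type I and a type II chain, so that cells make both types. KRT8 with KRT18 is the pair of simple epithelia and of the mesothelium in mammals, a tissue class to which the epicardium, the outer covering of the heart, belongs; KRT5 with KRT14 or KRT15 is typical of basal layers of stratified epithelium. In zebrafish, krt4, krt5 and cyt1 are known above all from the embryonic surface layer and the skin. In the RefSeq gene order of the GRCz12tu assembly, used for neighbours alone, krt5, krt8 and krt18a.1 follow each other with 0 coding genes between them. krt4 and krt18b have 1 coding gene between them, zgc:158846, so that krt18a.1 and krt18b each lie close to a type II gene. krt94 and krt15 are separated by 1 gene, the keratin krt98, and cyt1l and cyt1 by 0.

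The labels were checked with wt1a (listed as WT1, ENSDARG00000031420), the gene whose fragment drives the reporter. Its level was 71.3, 39.5, 1.15 and 2.59 TPM in the libraries labelled GFP-positive of pools 3, 4, 1 and 2, against 107, 44.3, 2.42 and 1.42 TPM in those labelled GFP-negative. Its levels stood apart by pool, while the difference between labelled sorts was small beside its error and did not pass (log2 difference, positive minus negative, -0.10, SE 0.31; limma adjusted p = 0.974), and every direction between sorts below is one between labels. The libraries of pools 3 and 4 also stood apart from those of pools 1 and 2 in makeup: the 50 most abundant genes held 45.2% to 66.3% of TPM in pools 3 and 4, against 74.4% to 80.5% in pools 1 and 2. Over 13877 genes the median log2 difference, pools 3 and 4 minus pools 1 and 2, was 0.80 with the TPM as deposited and -0.03 after libraries were scaled by a trimmed mean of log ratios, so values on both scales are given where they part.

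krt8 was the most abundant keratin, and 6 of the 9 genes (krt8, krt18a.1, krt94, krt15, krt18b and krt4) averaged at least 10 TPM. By mean TPM over the 8 libraries the order was krt8 (1065.7 TPM), krt18a.1 (596 TPM), krt94 (476 TPM), krt15 (473 TPM), krt18b (316 TPM) and krt4 (156 TPM). krt8 ranked 84 among all 31388 identifiers. Below these came cyt1 (2.85 TPM), krt5 (1.199 TPM) and cyt1l (0.968 TPM). krt8 was above every other keratin in each of the 8 libraries, and krt15 was above krt18b in 8 of 8. krt18a.1 was above krt94 in 5 of 8 libraries, which leaves their order unsettled. The order of krt94 and krt15 changed with the pool: krt94 was the higher of them in 1 of 4 libraries of pools 3 and 4, against each library of pools 1 and 2. Summed, the 9 genes took 0.315% to 0.643% of TPM in the libraries of pools 3 and 4, against 0.156% to 0.245% in those of pools 1 and 2. After scaling the sums were 2582 to 3408 in pools 3 and 4, against 2267 to 2999.6 in pools 1 and 2, and the ranges overlapped.

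**Figure D1:**
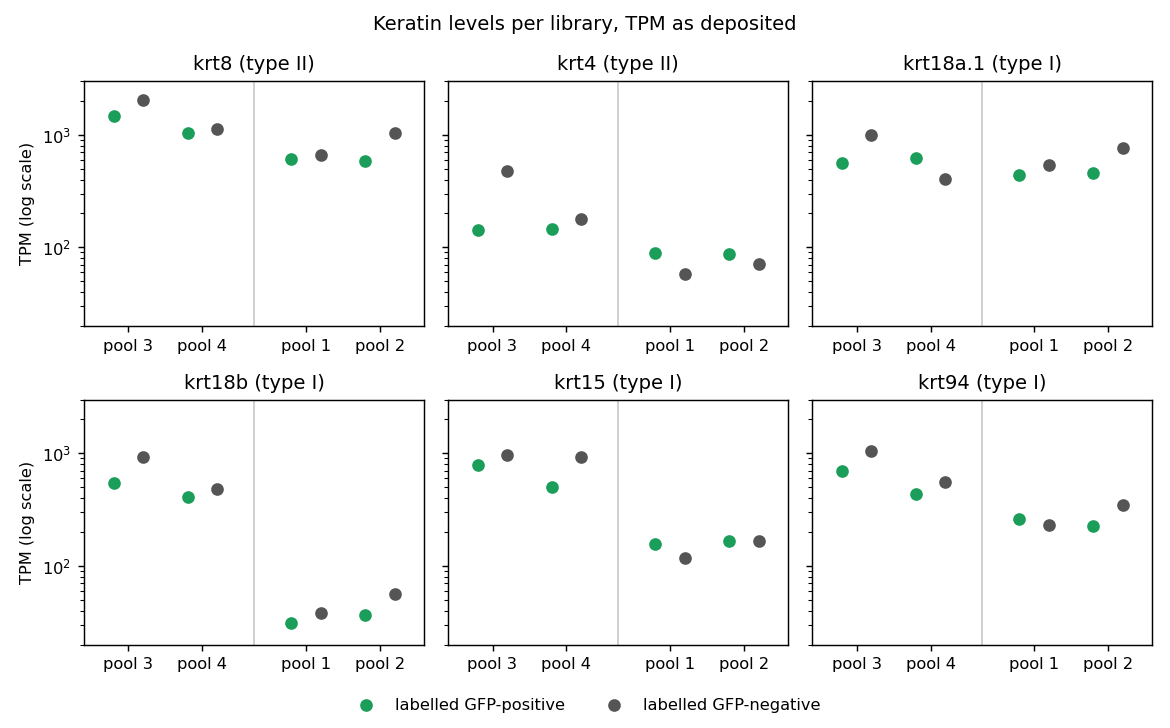
TPM as deposited (log axis) of the 6 abundant keratins in each library; pools 3 and 4 stand left of pools 1 and 2, with the library labelled GFP-positive left of that labelled GFP-negative in each pool. krt18b lies between 409 and 929 TPM in pools 3 and 4, above all libraries of pools 1 and 2 (30.8 to 56.4 TPM), while the krt18a.1 ranges overlap.

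krt18a.1 and krt18b, the zebrafish co-orthologs of mammalian KRT18, had different arrangements over the pools. krt18b stood at 544 and 409 TPM in the libraries labelled GFP-positive of pools 3 and 4 and 929 and 481 TPM in those labelled GFP-negative, against 30.8 and 36.9 TPM (GFP-positive) and 38.0 and 56.4 TPM (GFP-negative) in pools 1 and 2. All 4 libraries of pools 3 and 4 were thus above all 4 of pools 1 and 2, with a ratio of medians of 13.7 as deposited and 6.63 after scaling. krt18a.1 stood at 557 and 623 TPM in the libraries labelled GFP-positive of pools 3 and 4 and 985 and 404 TPM in those labelled GFP-negative, against 442 and 457 TPM (GFP-positive) and 540.4 and 759.9 TPM (GFP-negative) in pools 1 and 2. Its direction by pool depends on the scale. The ratio of medians was 1.18 as deposited, with overlapping ranges, and 0.553 after scaling, where krt18a.1 stood at 334 to 522 in pools 3 and 4, against 663 to 929.5 in pools 1 and 2, without overlap.

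A share within a library does not depend on scaling. Of the summed TPM of krt18a.1 and krt18b, krt18b made up 49.4% and 39.6% in the libraries labelled GFP-positive of pools 3 and 4 and 48.5% and 54.4% in those labelled GFP-negative. In pools 1 and 2 it made up 6.50% and 7.47% in the libraries labelled GFP-positive and 6.56% and 6.91% in those labelled GFP-negative. The share was alike in the 4 libraries of pools 1 and 2 and several times higher in each library of pools 3 and 4, and it did not follow the labelled sort: the library labelled GFP-positive was the lower one in pools 4 and 1 and the higher one in pools 3 and 2. The 2 genes come from a gene duplication, and short reads from similar stretches could be assigned to either copy; how far this moved the share was not tested. The third copy, krt18a.2, the neighbour of krt18a.1, averaged 0.468 TPM.

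The type II keratin krt8 stood at 1459.9 and 1028 TPM in the libraries labelled GFP-positive of pools 3 and 4 and 2023 and 1115 TPM in those labelled GFP-negative, against 608 and 586 TPM (GFP-positive) and 659 and 1047 TPM (GFP-negative) in pools 1 and 2. On this scale the 2 ranges met, the library labelled GFP-negative of pool 2 being just above the lowest of pool 4. After scaling they were close, 852 to 1072 in pools 3 and 4, against 849 to 1280.3 in pools 1 and 2, so that the ratio of medians turned, 2.03 as deposited and 0.907 scaled. Which type I chains krt8 pairs with in these cells was not tested, and krt15 and krt94 are not in the ratios that follow. The ratio of krt8 to the sum of krt18a.1 and krt18b was 0.996 to 1.33 in pools 3 and 4, against 1.14 to 1.29 in pools 1 and 2. The ratio of krt8 to krt18a.1 alone was 1.65 to 2.76 in pools 3 and 4, against 1.22 to 1.38 in pools 1 and 2. The ratio of krt8 to the krt18 sum thus spanned an overlapping range in both pairs of pools, while the ratio to krt18a.1 alone did not overlap. This comparison of ratios was chosen after the values were seen and carries no test. Scaled, the krt18 sum was 679 to 1014 in pools 3 and 4, against 717 to 998 in pools 1 and 2.

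**Figure D2:**
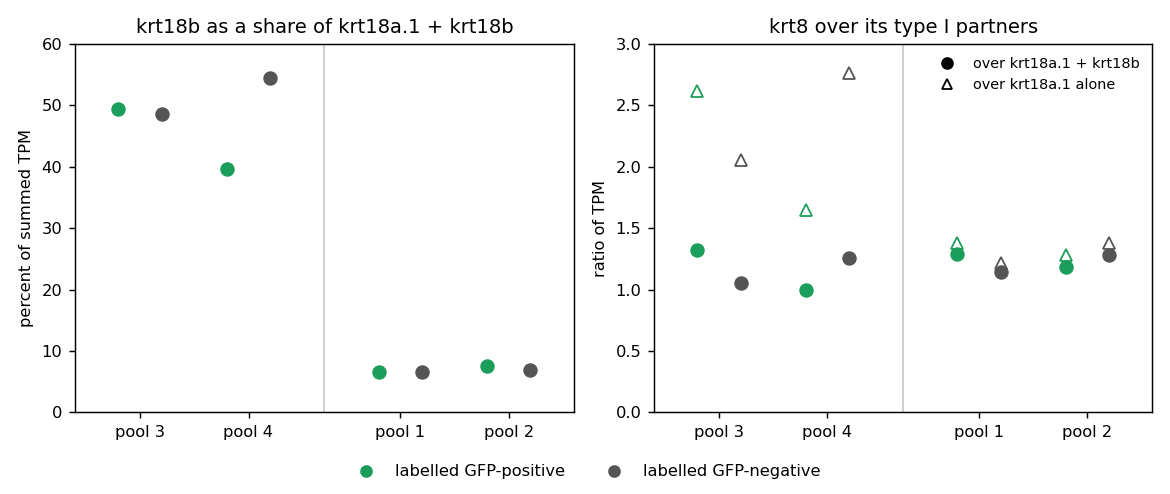
Left, krt18b as a percentage of the summed TPM of krt18a.1 and krt18b per library; right, the ratio of krt8 TPM to that sum (filled circles) and to krt18a.1 alone (open triangles). The share is at least 39.6% in pools 3 and 4, against at most 7.47% in pools 1 and 2, while the filled circles stay between 0.996 and 1.33 in all 8 libraries.

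krt15, a type I keratin, had the next largest difference by pool among the 6 abundant keratins. It stood at 782 and 503 TPM in the libraries labelled GFP-positive of pools 3 and 4 and 961 and 926 TPM in those labelled GFP-negative, against 158 and 167 TPM (GFP-positive) and 118 and 167 TPM (GFP-negative) in pools 1 and 2. The libraries of the pool pairs did not overlap on either scale, and the ratio of medians was 5.27 as deposited and 2.22 after scaling. Its neighbour krt94, also of type I, had 696 and 434 TPM (GFP-positive) and 1049.9 and 552 TPM (GFP-negative) in pools 3 and 4, against 261 and 227 TPM (GFP-positive) and 233 and 350.5 TPM (GFP-negative) in pools 1 and 2. The krt94 ranges were apart as deposited and overlapped after scaling, with 359.9 to 556 in pools 3 and 4, against 329 to 434 in pools 1 and 2. The ratio of krt94 to krt15 within a library was 0.597 to 1.09 in pools 3 and 4, against 1.36 to 2.104 in pools 1 and 2.

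krt4, a type II keratin, stood at 143 and 145 TPM in the libraries labelled GFP-positive of pools 3 and 4 and 473 and 179 TPM in those labelled GFP-negative, against 89.6 and 86.7 TPM (GFP-positive) and 58.4 and 70.7 TPM (GFP-negative) in pools 1 and 2. The library labelled GFP-negative of pool 3 was the highest by far. As deposited the pool pairs did not overlap, and after scaling they did, with 88.2 to 251 in pools 3 and 4, against 86.5 to 149 in pools 1 and 2. krt4 did not keep a steady ratio to its neighbour krt18b, at 0.263 to 0.509 in pools 3 and 4, against 1.25 to 2.91 in pools 1 and 2.

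**Figure D3:**
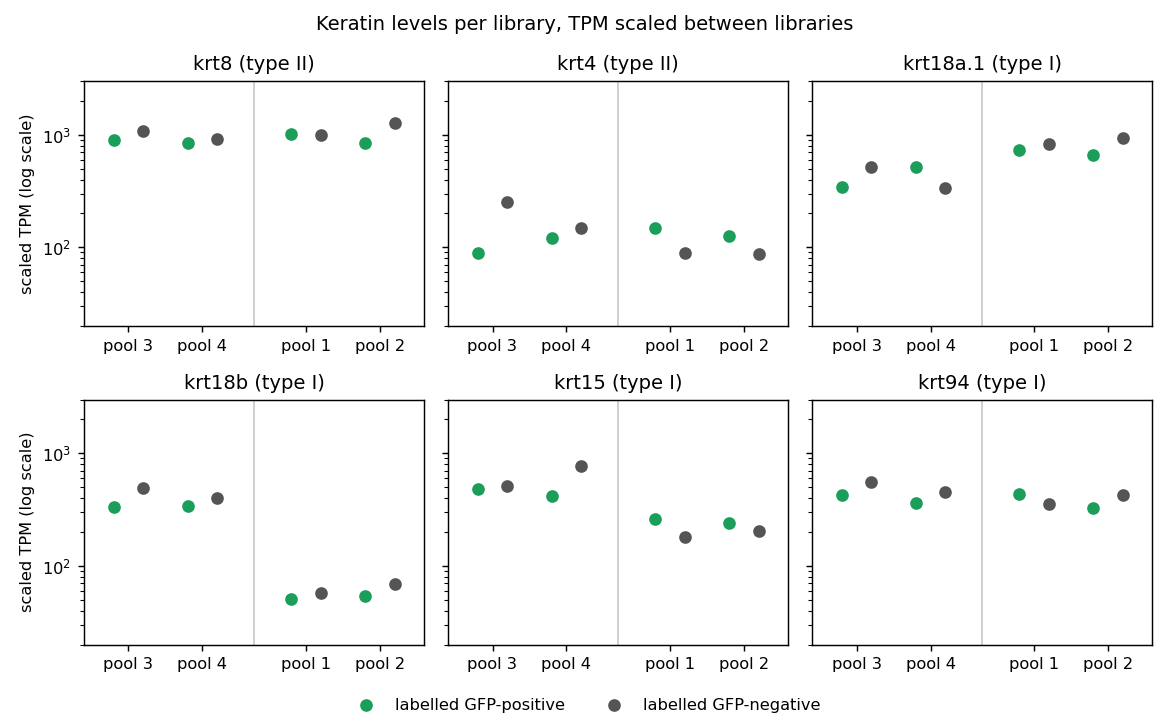
The same 6 keratins after scaling between libraries by a trimmed mean of log ratios (log axis, same layout of pools and labelled sorts). krt18b (335 to 492 in pools 3 and 4) and krt15 (417 to 766) lie above pools 1 and 2, krt18a.1 (334 to 522) lies below, and krt8, krt94 and krt4 overlap.

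On the scaled values 2 of the 9 keratins, krt15 and krt18b, were above pools 1 and 2 in all 4 libraries of pools 3 and 4, and 1, krt18a.1, was below. Over all 13877 genes tested, 12.1% were above and 14.5% below in the same sense. As deposited, 4 of the 9 were above (krt4, krt15, krt18b and krt94) and 0 below, beside 33.4% and 6.26% of all genes. The genes were chosen with this contrast in view, so nothing is read from these counts. Without pool 4 the scaled count was 5 of 9, krt94 and cyt1l being added above, against 3 with all libraries. Without pool 1 or pool 2 it was 4, and without pool 3 it was 3. With fewer libraries overlap is less likely, and the share of all genes is not given for these settings. cyt1l was added on 5.99 and 0.34 TPM in pool 3, against 0 in pools 1 and 2. Cell type markers differed over the same libraries. The summed scaled level of 13 fibroblast identifiers was 5069 to 6539 in pools 3 and 4, against 399 to 865 in pools 1 and 2, and 12 of the 13 were above without overlap. For 11 cardiomyocyte identifiers, 9 of them tested and all 9 below without overlap, the sum was 1107 to 3029 in pools 3 and 4, against 36526 to 47156 in pools 1 and 2; none of the 9 tested was at 0 in any library. For 10 endothelial identifiers the sum was 19.0 to 43.4 in pools 3 and 4, against 345 to 461 in pools 1 and 2, with 9 below and pecam1a, TIE1 and ERG each listed at 0 in 1 library. The 9 epicardial and mesothelial identifiers summed to 328.5 to 458 in pools 3 and 4, against 298 to 449.6 in pools 1 and 2, with 6 above, wt1a, wt1b and TCF21 among them, and ALDH1A2 and podxl below. Most of the sum in pools 1 and 2 was podxl (166 to 213) and ALDH1A2 (63.5 to 153). In pools 3 and 4 podxl was at 12.2 to 21.3 and ALDH1A2 at 0.848 to 4.59. The overlap of the scaled sums thus does not mean that the genes had like levels. As deposited the epicardial and mesothelial sums did not overlap, at 396 to 864 and 185 to 368 TPM. On the scaled values erythrocyte markers (6 identifiers) summed to 7.65 to 19.2 in pools 3 and 4, against 1049 to 2924 in pools 1 and 2. Of the 5 tested, 4 were below. Among them hbaa2, at no more than 0.81 TPM in pools 3 and 4, passed the filter of 1 TPM in 4 libraries through pools 1 and 2 alone. Macrophage markers (10 identifiers) summed to 53.0 to 107 in pools 3 and 4, against 206 to 291 in pools 1 and 2. Most of this sum was cd74a alone, at 44.7 to 89.3 and 159 to 236. Of the 9 tested, 4 were below on the scaled values and the rest overlapped, MPEG1 (ENSDARG00000043093) among them. As deposited the macrophage sums overlapped, at 68.6 to 201 and 139 to 238 TPM. So did cd74a, at 55.9 to 169 and 109 to 193 TPM, and 1 of the 9 was below. This was LCP1, at no more than 0.66 TPM in pools 3 and 4, which passed the filter through pools 1 and 2 alone. What part these cell types have in the keratin levels was not tested.

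The other 3 keratins were near the floor of the table. cyt1 was listed at 0, 3.63, 3.50 and 0.34 TPM in the libraries labelled GFP-positive of pools 3, 4, 1 and 2, against 7.24, 3.97, 4.10 and 0 TPM in those labelled GFP-negative. krt5, the type II keratin of basal epidermis in mammals, was at 0, 0, 1.1 and 2.20 TPM (GFP-positive) against 1.94, 2.23, 0.51 and 1.61 TPM (GFP-negative) in the same order of pools. cyt1l, the neighbour and close relative of cyt1, was at 5.99, 1.41, 0 and 0 TPM (GFP-positive) against 0.34, 0, 0 and 0 TPM (GFP-negative). At these levels cyt1 and cyt1l, whose reads can be split between similar copies, are uncertain. Of the 10 epidermis markers, the basal cell factor TP63 had 0.35 to 2.07 TPM in pools 3 and 4, against 1.09 to 2.28 in pools 1 and 2, the adhesion gene epcam 0 to 2.65 and 0 to 0.87 TPM, and the epithelial cadherin cdh1 0.36 to 1.95 and 0.02 to 1.15 TPM. Others reached more: the claudin gene cldni, without overlap on either scale, had 2.90 to 21.1 TPM in pools 3 and 4, against 0 to 1.22 TPM in pools 1 and 2. The integrin gene ITGB4 (0.09 to 14.8 and 1.19 to 1.66 TPM) and the collagen gene col17a1b (0 to 5.45 and 0.01 to 0.44 TPM), both of hemidesmosomes, overlapped between the pool pairs. PPL went the other way after scaling, with 0 to 1.36 in pools 3 and 4, against 2.54 to 3.69 in pools 1 and 2. As deposited it overlapped (0 to 1.88 and 1.67 to 3.02 TPM). Of the 5 epidermis markers tested, 1 was above and 1 below on scaled values, beside 12.1% and 14.5% of all genes tested. The 10 epidermis markers together summed to 6.5 to 30.6 TPM in pools 3 and 4, against 6.76 to 8.43 TPM in pools 1 and 2. After scaling the sums were 5.39 to 18.9 and 10.3 to 11.6, and the ranges overlapped on both scales.

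Within this list, which holds more type I than type II genes, the summed type I TPM was the larger in each library. The summed type II TPM over the summed type I TPM was 0.620 and 0.594 in the libraries labelled GFP-positive of pools 3 and 4 and 0.635 and 0.548 in those labelled GFP-negative. It was 0.780 and 0.759 (GFP-positive) and 0.769 and 0.839 (GFP-negative) in pools 1 and 2, so the pool pairs did not overlap. krt8, krt18a.1 and krt18b together held 54.6% to 65.4% of the keratin sum in pools 3 and 4, against 67.8% to 76.0% in pools 1 and 2. krt15 held 14.9% to 25.3% in pools 3 and 4, against 6.79% to 10.7% in pools 1 and 2, whereas krt94 held 13.8% to 16.6% and 14.1% to 16.4%.

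**Figure D4:**
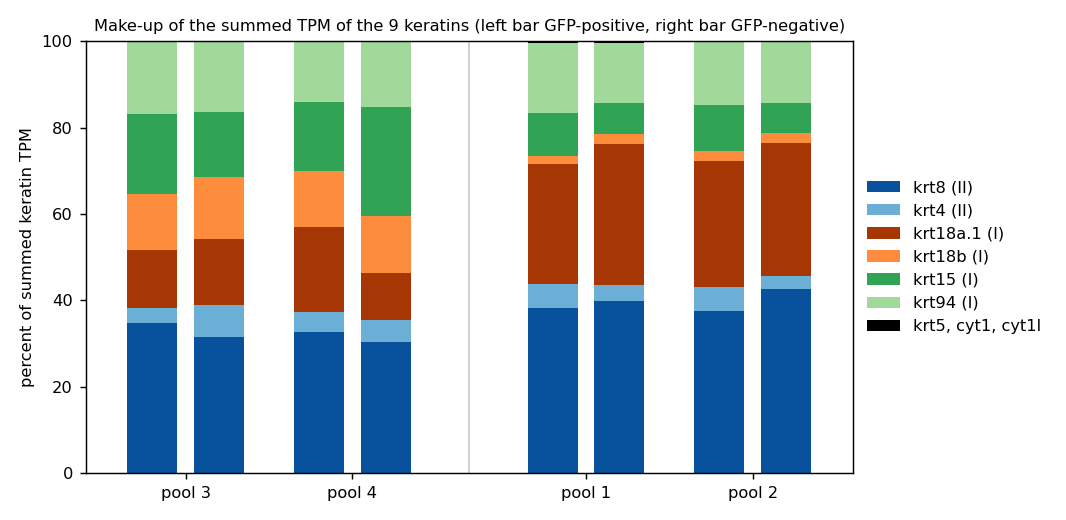
Each gene's percentage of the summed TPM of the 9 keratins, 1 bar per library, type II genes in blue at the base and type I genes above. In pools 3 and 4 krt18b (13.0% to 14.4%) and krt15 (14.9% to 25.3%) take more of the bar than in pools 1 and 2, and krt18a.1 (11.0% to 19.8%) takes less than there (27.7% to 32.7%).

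Between the labelled sorts, the comparison the study was designed for, no keratin passed the threshold. The test was limma on log2(scaled TPM + 1) over 13877 genes with pool as a block, called at a Benjamini-Hochberg adjusted p under 0.05. It called 0 genes in all (0% of those tested; 770 at an unadjusted p under 0.05, smallest adjusted p 0.853) and 0 of the 8 keratins tested, with 0 at an unadjusted p under 0.05; cyt1l was too low to be tested. The means and SDs that follow are of TPM as deposited, whereas the log2 differences are of scaled values. Each SD includes the spread between pools, which the block takes out of the test. krt18b averaged 255 ± 262 TPM in the libraries labelled GFP-positive and 376 ± 422 TPM in those labelled GFP-negative (SD, n = 4 each). Its log2 difference was -0.33 (SE 0.16, interval at 95% confidence from -0.71 to 0.05; limma adjusted p = 0.853), and the library labelled GFP-positive was the lower one in 4 of 4 pools, as it was for 6.51% of all genes tested. krt8 averaged 920 ± 413 and 1211 ± 577 TPM in the libraries labelled GFP-positive and GFP-negative (SD, n = 4 each), a log2 difference of -0.24 (SE 0.18, interval -0.66 to 0.19; limma adjusted p = 0.878). For krt18a.1 the means were 520.01 ± 85.7 TPM (GFP-positive) and 672 ± 255 TPM (GFP-negative; SD, n = 4 each) and the difference -0.16 (SE 0.23; limma adjusted p = 0.938). The fit gave -0.20 (SE 0.19) for krt94, -0.13 (SE 0.35) for krt4, -0.04 (SE 0.25) for krt15, -0.34 (SE 0.48) for krt5 and -0.47 (SE 0.52) for cyt1, at limma adjusted p between 0.889 and 0.989. All 8 estimates were below 0, with a median of -0.22 beside 0.01 for all genes, of which 49.0% were below 0. The 8 genes were measured in the same libraries, so their signs are not independent and nothing is read from this count. Leaving out pool 3 turned krt4 to 0.32, and leaving out pool 4 turned krt15 to 0.22. Leaving out only the pool 3 library labelled GFP-negative is no separate check. With pool as a block, the remaining library of that pool adds nothing to the difference between sorts. krt5 and cyt1, at a few TPM, also turned with a pool left out. krt4, krt5 and krt15 were below 0 in pools 3 and 4 and above 0 in pools 1 and 2, signs that 6.02% of all genes tested had as well.

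**Figure D5:**
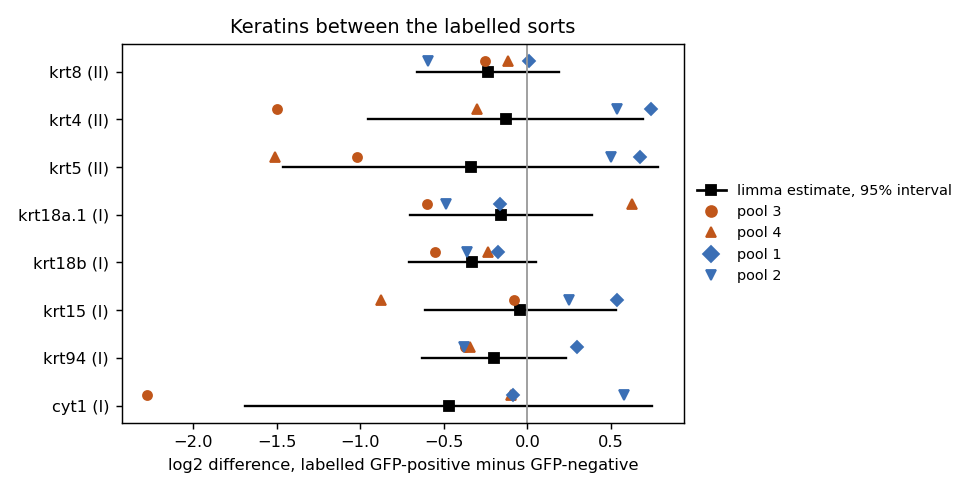
Log2 difference, labelled GFP-positive minus GFP-negative, of the 8 keratins tested: black squares and lines give the limma estimate with its 95% interval, coloured symbols the difference in each pool. Each interval includes 0; krt18b is below 0 in all 4 pools, and krt4, krt5 and krt15 are below 0 in pools 3 and 4 and above 0 in pools 1 and 2.

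Beyond these 9 genes the table holds 14 further identifiers named keratin by symbol or synonym (krt or cyt1 at the start). Of these, 2 averaged at least 1 TPM, both of type I: krt91 with 99.5 TPM and krt98, the gene between krt94 and krt15, with 6.34 TPM. krt91 had 96.8 and 80.8 TPM (GFP-positive) and 244 and 166 TPM (GFP-negative) in pools 3 and 4, against 56.8 and 78.1 TPM (GFP-positive) and 37.4 and 35.6 TPM (GFP-negative) in pools 1 and 2; it stood apart as deposited and overlapped after scaling, 59.7 to 137 in pools 3 and 4, against 43.6 to 113 in pools 1 and 2. krt98 had 15.1 and 15.2 TPM (GFP-positive) and 15.1 and 4.46 TPM (GFP-negative) in pools 3 and 4, against 0.46 and 0.08 TPM (GFP-positive) and 0 and 0.32 TPM (GFP-negative) in pools 1 and 2. krt98 thus had the same order of pools as its neighbour krt15. The other 12 identifiers averaged less than 1 TPM, 3 of them listed at 0 in all libraries. The 9 genes held 95.2% to 98.5% of the TPM of all identifiers so named. Keratins under other names, or without a symbol, are not in this share.

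Other intermediate filament genes were followed in the same libraries. Of 19 identifiers 9 were tested, of which limma called 0 between the labelled sorts (median log2 difference -0.13); on scaled values 5 were above in pools 3 and 4 and 2 below, beside 12.1% above and 14.5% below of all genes tested. The vimentin gene VIM (ENSDARG00000010008), of mesenchymal cells, had 127 to 312 TPM in pools 3 and 4, against 6.36 to 11.1 TPM in pools 1 and 2. LMNA, the gene of the nuclear lamins A and C, had 55.0 to 160.02 TPM in pools 3 and 4, against 6.73 to 8.82 TPM in pools 1 and 2. The muscle desmin gene DES (ENSDARG00000058656) went the other way, with 5.61 to 35.7 TPM in pools 3 and 4, against 59.0 to 87.3 TPM in pools 1 and 2, and so did its partner gene synm after scaling (18.9 to 31.6 and 44.9 to 50.7), whereas as deposited synm overlapped. A second identifier named DES (ENSDARG00000005221) was higher in pools 3 and 4 on both scales, with 2.87 to 13.6 TPM there, and was listed at 0 in all libraries of pools 1 and 2. This identifier passed the filter of 1 TPM in 4 libraries through pools 3 and 4 alone. Its place among the 5 above was thus fixed beforehand.

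Genes of desmosomes, hemidesmosomes and plakins, some of which tie keratin filaments to the membrane, were for the most part detected on both sides of the pool split. Of 23 desmosome, hemidesmosome and plakin identifiers 15 were tested, limma called 0 between the labelled sorts (median log2 difference 0.03), and on scaled values 3 were above in pools 3 and 4 and 3 below, beside the same 12.1% and 14.5% of all genes. Among the 3 below, pkp2 had 0.05 to 0.59 TPM in pools 3 and 4, against 1.76 to 3.5 TPM in pools 1 and 2. It passed the filter through pools 1 and 2 alone, so its count says little. Of the plectin genes, cytolinkers of intermediate filaments, pleca had 73.4 to 130.3 TPM in pools 3 and 4, against 19.4 to 27.9 TPM in pools 1 and 2, without overlap on either scale, and plecb 47.2 to 128 and 50.3 to 99.4 TPM, with overlap. The plakoglobin gene JUP (ENSDARG00000070787), shared by desmosomes and adherens junctions, had 30.98 to 91.1 and 27.3 to 47.2 TPM. macf1a, a linker of actin and microtubules, had 30.9 to 52.8 and 20.03 to 38.8 TPM, with overlap, and was lower without overlap after scaling, 21.9 to 28.0 in pools 3 and 4, against 30.4 to 53.3 in pools 1 and 2. Of 25 epithelial identity identifiers 6 were tested, 0 called (median log2 difference -0.13) and 1 above and 1 below by pool on scaled values, a count near the 12.1% and 14.5% of all genes. The 1 above was cldni, which is also the 1 above among the epidermis markers. The 1 below was spint2, at 0 TPM in pools 3 and 4, against 1.2 to 3.29 TPM in pools 1 and 2. spint2 passed the filter through pools 1 and 2 alone, so its place below was fixed beforehand. The most abundant of the 6 tested were cldni, PROM1, the claudin gene cldn7a and TP63. PROM1 (ENSDARG00000039966) had 2.49 to 10.6 TPM in pools 3 and 4, against 0 to 1.33 TPM in pools 1 and 2, and overlapped after scaling (1.53 to 5.63 and 0 to 2.21). cldn7a had 1.86 to 7.68 TPM in pools 3 and 4, against 0 to 0.98 TPM in pools 1 and 2, and overlapped after scaling as well (1.15 to 4.07 and 0 to 1.63).

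For each keratin above 10 TPM, the genes nearest in pattern, up to 3 of them named, were found by the root-mean-square difference between centred log2(scaled TPM + 1) profiles over the 8 libraries. Such a difference describes these libraries, which share pools and cell makeup, and carries no test. Nearest to krt18b were COLEC12, a scavenger receptor gene (0.14), PRRX1, a homeobox gene of mesenchyme (0.19), and prss23, a serine protease gene (0.20). prss23 stood at 139.7 and 119 TPM in the libraries labelled GFP-positive of pools 3 and 4, against 11.0 and 10.3 TPM in those of pools 1 and 2. Nearest to krt18a.1 were CMIP (0.13), eppk1, which encodes the plakin epiplakin, a binder of keratin filaments (0.17), and SPAG9 (0.17). eppk1 had a scaled level of 31.7 to 42.3 in pools 3 and 4, against 67.2 to 91.5 in pools 1 and 2. As deposited its ranges overlapped, at 38.4 to 79.9 and 43.7 to 74.8 TPM. It was chosen for a scaled profile like that of krt18a.1, so its scaled split is no separate result. Near to krt8 were nlrc11 (0.11) and tmem176l.3a (0.12); nearest to krt94 were KAT6A (0.09), RAB14 (0.10) and MTOR (0.12), and to krt15 si:ch73-162j3.5 (0.17), TRAPPC12 (0.19) and atrip (0.19). Those nearest to krt4, si:dkeyp-84f3.9, DCAF10 and VPS51, averaged 1.60 to 2.09 TPM, where a profile is shaped by the added 1. The added 1 also weighs on genes that were low in pools 1 and 2. There COLEC12 had 1.76 to 2.66 TPM, PRRX1 0.21 to 0.43 TPM and atrip 0.09 to 0.64 TPM. Among the keratins themselves krt8 and krt94 were nearest to each other (0.21) and krt18a.1 and krt18b farthest apart (1.83).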

How the data were processed

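Poly(A) RNA of the 8 libraries was prepared from 0.2 to 0.6 ng of total RNA per library with 2 rounds of amplification and read as single reads of 60 bases, per the labels' protocols. Per the submitters' processing notes the authors used CASAVA 1.8.2, cutadapt and RSEM 1.2.25 and named the build Zv9; neither the aligner nor the annotation release is given in the sources used here. As deposited, the table is in TPM: each column sums to 1000000 within rounding, so TPM keeps no depth and the precision per library is unknown. How reads shared by similar keratin copies were divided is not given in the sources used here.

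Gene names came from a table that names 25925 of the 31388 identifiers, most list genes being matched by symbol, RefSeq synonym or symbol without paralog letter. The genes and lists were chosen with earlier results of these data known. Some lists share genes, so their counts are not separate results. cldni and TP63 are both epidermis markers and epithelial identity genes. PPL is in the epidermis and desmosome lists, and TCF21 in the fibroblast and epicardial lists. Libraries were brought to one scale by a trimmed mean of their log ratios without weights, dropping 30% of ratios and 5% of abundances at either side. This used the 13877 genes that reached 1 TPM in 4 or more libraries, and the same genes were tested. The 4 libraries may all belong to 1 pool pair. A gene under 1 TPM throughout the other pair is then tested through 1 pair alone. Its lack of overlap between pool pairs, on the TPM as deposited, is fixed beforehand. Such genes are in the counts by pool of the lists and may be in the shares of all genes. limma 3.58.1 (R 4.3.3) was fitted to log2(scaled TPM + 1), with terms for pool and labelled sort and a mean-dependent prior variance, two-sided, with Benjamini-Hochberg adjustment over all genes tested; a fold change on this scale understates that of low genes. The scripts were tested on simulated data. Pairing is stated by the series text and given by the pool number. Deviations from the sort means correlated at 0.492, 0.537, 0.446 and 0.403 within pools 1 to 4. Across sorts they also correlated for pools 1 with 2 (0.474 and 0.552) and 3 with 4 (0.382 and 0.437). Nothing says that hearts were shared between pools. With pool as a block, p-values rest on how the difference between labelled sorts varied from pool to pool, not on levels between pools.

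The text names all 9 keratins, for each keratin above 10 TPM the 3 nearest genes (1 of them is not reported here), other keratins above 1 TPM, and the 4 tested genes of highest mean in each of 3 lists; other names were added after their values were seen. Alternatives covered 3 other scalings, 2 other filters, pseudocounts of 0.1 and 5, robust variance, no block and leaving out each pool. Leaving out only the pool 3 library labelled GFP-negative, and the interaction of labelled sort with pool pair, were added after the data were seen. Python 3.11.15, pandas 2.3.3 and matplotlib 3.10.9 were used for tables and figures.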

Additional observations from a re-analysis of the deposited data

Results flagged for a closer look

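krt4, krt5 and krt15 moved in opposite directions between the labelled sorts in the pool pairs, below 0 in pools 3 and 4 and above 0 in pools 1 and 2. For krt4 the log2 difference, GFP-positive minus GFP-negative, was -1.50 and -0.30 in pools 3 and 4, against 0.74 and 0.53 in pools 1 and 2, a difference of -1.53 (SE 0.46). For krt15 it was -0.08 and -0.88 in pools 3 and 4, against 0.54 and 0.25 in pools 1 and 2, a difference of -0.87 (SE 0.37). For krt5, at no more than 2.23 TPM in any library, the difference was -1.85 (SE 0.73). A limma interaction term of the labelled sort with the pool pair, added after the data were seen, gave adjusted p of 0.873 for krt4 and krt5 and 0.887 for krt15, and called 0 of 13877 genes (0%; 787 at an unadjusted p under 0.05). krt91, a keratin outside the 9, had the same signs, with a difference of -2.10 (SE 0.37; limma adjusted p = 0.873). Over all genes tested, 6.02% had these signs in the 4 pools.

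cyt1l was flagged because 1 of the 4 libraries labelled GFP-negative stood away from the rest, with the gap covering the whole range (a ratio of 1). This library, of pool 3, had 0.34 TPM and the other 3 were listed at 0. With 3 libraries at 0 the ratio is 1 whatever the other value is, so nothing is read from this flag. Chance flags about 1 in 20 groups of 4, and 24 were examined, but that rate does not hold for a gene at the floor.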

How the results depend on the processing

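limma called 0 of the tested keratins between the labelled sorts under each of the 14 alternatives, with adjusted p of at least 0.774. The smallest unadjusted p was 0.030, for krt18b with the TPM as deposited (log2 difference -0.47, SE 0.18; limma adjusted p = 0.774). Over all genes it called 0 except without pool 3, or without only the library of pool 3 labelled GFP-negative, where it called 1, SOCS3 (log2 difference 6.64 and 6.74; limma adjusted p = 0.0252 and 0.0314), so the count ran from 0 to 1 over the fits with a pool or library left out. The pool 3 fits are not separate checks, since with pool as a block its remaining library adds nothing to the difference between sorts. Without the replicate block the count was 0 genes (327 below 0.05 before adjustment) and 0 keratins. The block changed no call. Of 107 alternative values for single keratins 101 kept their sign and 6 turned, all with a pool or library left out: over those fits krt4 ran from -0.42 to 0.32, krt5 from -0.76 to 0.040, krt15 from -0.24 to 0.22 and cyt1 from -0.86 to 0.11. krt4 and cyt1 each turned in both pool 3 fits, so those turns are counted double. krt8, krt18a.1, krt18b and krt94 were below 0 under all alternatives, though krt18a.1 was at -0.013 (SE 0.25) without pool 3. By single pools, only krt18b of these was below 0 in each. krt18a.1 was at 0.63 in pool 4, and krt8 and krt94 were at 0.01 and 0.29 in pool 1. The count of keratins whose pool pairs do not overlap was 3 with median of ratios and upper quartile scaling. It was 4 with the TPM as deposited, and 3 to 5 with a pool or library left out. With fewer libraries overlap is less likely, and the share of all genes is not given for those fits. As the depth is unknown, levels of a few TPM (krt5, cyt1, cyt1l) have no stated precision.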
